A study of Mus musculus with 7 samples.

Results

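The proteasome genes of the mouse were examined for peaks of the transcription factors LEF1 and TCF1 in naive CD8-positive T cells. Members were the protein-coding genes whose symbols start with Psma, Psmb, Psmc, Psmd, Psme, Psmf or Psmg, and 51 of the 21883 protein-coding genes on chromosomes 1 to 19, X and Y met this rule. The symbol rule also caught 3 genes whose products are not proteasome subunits, Psmc3ip, Psme2b and Psme3ip1, and these were kept apart as "other symbols". The study profiled both factors by CUT&RUN, in which an antibody guides a nuclease to the bound DNA and the released fragments are sequenced. There were 3 libraries for LEF1 and 3 for TCF1, all from wild-type (WT) spleen CD8 T cells that carry the transgenic P14 T cell receptor, sorted as CD8+/Ly5.1+/CD44-/CD62L+. The seventh sample, an input control without antibody, came from another gate (CD8+/Ly5.1-/CD44+) and was not analysed here. All T cells of the antibody libraries thus share 1 transgenic receptor and 1 sort gate, and no perturbed or knockout group was compared. Nothing in the labels says whether replicates came from separate mice, so the tests measure only the spread between these samples.

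The proteasome is the protease that degrades ubiquitin-tagged proteins. Its barrel-shaped core is built of alpha subunits, which form the gated outer rings, and beta subunits, which form the inner rings and carry the active sites. A regulatory particle caps the barrel: its ATPases unfold the substrate and thread it in, and its non-ATPase subunits bind and remove ubiquitin. Interferon exchanges the standard catalytic beta subunits for inducible ones, which changes the peptides offered on MHC class I. LEF1 and TCF1 (the product of Tcf7) are closely related HMG-box factors that bind the same DNA motif and help to keep CD8 T cells in a naive or stem-like state.

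The data are lists of peaks, called by the authors library by library, with 27666, 37646 and 23704 peaks for LEF1 replicates 1, 2 and 3 and 25623, 22901 and 11423 for TCF1 replicates 1, 2 and 3. Read totals are not known here, so a missing peak means only that none was called. The longest list, LEF1 replicate 2, was over 3 times the length of the shortest, TCF1 replicate 3. Each peak carries the authors' fold enrichment, a ratio of summit signal over background, which is used here only to describe peaks and to rank them within their own list. All values per library below are given in the order LEF1 replicates 1, 2, 3 and then TCF1 replicates 1, 2, 3. A gene end was called held by a factor when at least 2 of its 3 libraries had a peak interval within 1 kb of either end of the gene. As a check of the labelled cell type, 8 of 8 CD8 T cell marker genes were held at an end by both factors, against 1 of 6 B cell markers (Cd79a), 1 of 6 myeloid markers (Itgam) and 0 of 2 NK cell markers.

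Both factors had peaks at the ends of most proteasome genes. LEF1 held an end of 29 of 51 members (56.9%), where 33% of all protein-coding genes were called by the same rule. TCF1 held an end of 31 of 51 (60.8%), against 32% of all genes. Both factors held an end of 27 members (52.9%, against 29.9% of all genes). An interval was present in all 6 libraries at 22 members (43.1%, against 18.6%), and in no library at 11 members (21.6%, against 59.2%). The members' shares were therefore higher than the background under each of these counts, and the share with no interval was lower. Without the 3 other symbols the counts were 27, 29 and 25 of 48 for LEF1, TCF1 and both.

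**Figure D1:**
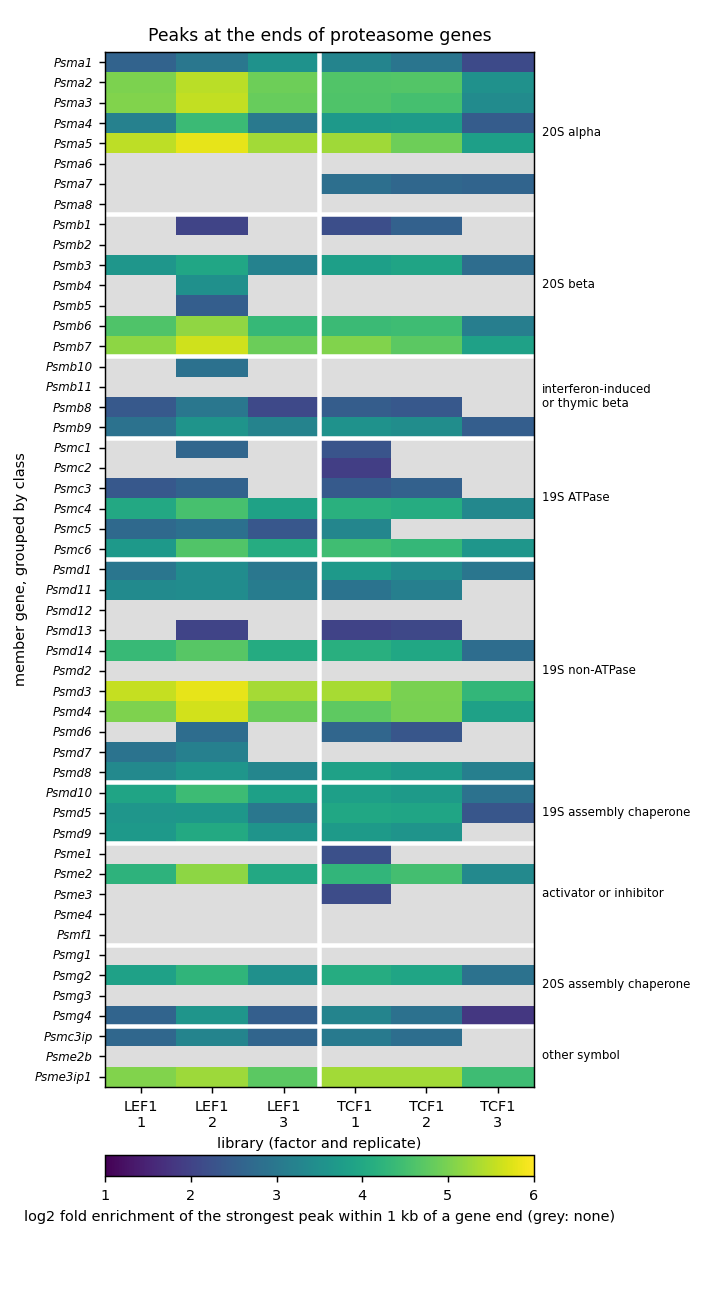
Fold enrichment (log2 colour scale) of the strongest peak within 1 kb of a gene end, for the 51 member genes (rows, by class) in the 6 libraries (columns, factor and replicate); grey marks no peak. Colours can be compared within a column; 22 genes have a peak in every column and 11 in none.

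Library by library, 29, 36, 27, 36, 31 and 23 members had an interval at an end. The LEF1 mean was 30.7 ± 4.73 members and the TCF1 mean 30.0 ± 6.56 (SD, n = 3 each), a difference of 0.667 members with overlapping groups. The sign of this small difference depended on single libraries, as it was -2 members without LEF1 replicate 2 and -2.83 without TCF1 replicate 3. The share of all genes was 32.2%, 38.9%, 29.5%, 35.8%, 32.8% and 19%, with means of 33.5 ± 4.84% and 29.2 ± 9.0% (two-sided exact permutation test over 20 assignments, p = 0.7, smallest possible p 0.1). The members' share exceeded the share of all genes in each of the 6 libraries, and both were lowest in TCF1 replicate 3, the shortest list.

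**Figure D2:**
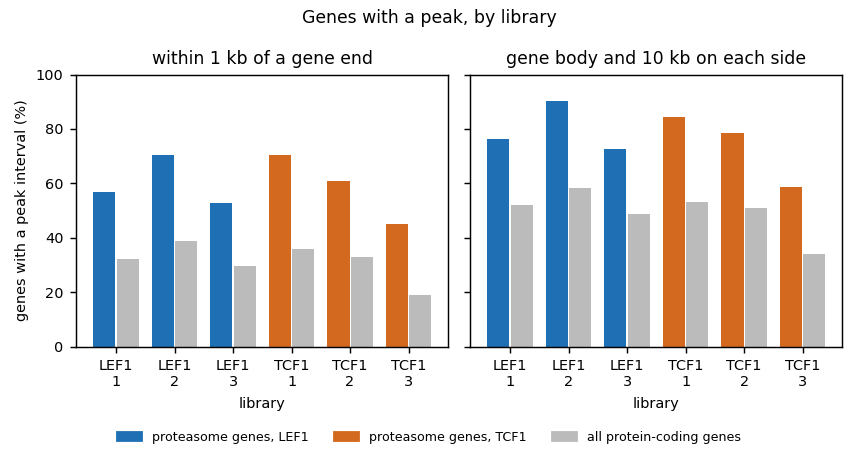
Percent of genes with a peak interval within 1 kb of a gene end (left) or in the gene body with 10 kb on each side (right), for the 51 proteasome genes (coloured bars) and all 21883 protein-coding genes (grey bars), by library. The coloured bar is the higher of the pair in every library and both windows, from 45.1% against 19% to 90.2% against 58.4%.

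List length changed the comparison of the factors. When every list was reduced to its 11423 peaks of highest −log10 q, the length of the shortest, members with an end interval numbered 15, 15, 15, 21, 20 and 23. The TCF1 libraries were then all above the LEF1 libraries, with 21 members held by TCF1 (41.2%, against 18.9% of all genes) and 14 by LEF1 (27.5%, against 15.8%). All genes moved the same way, with shares of 15.6%, 15.7% and 16% for LEF1 and 18.9%, 18.7% and 19% for TCF1. With these lists 7 members were held by TCF1 and not LEF1 (13.7%, against 4.08%), namely Psma4, Psmb3, Psmd1, Psmd5, Psmd8, Psmd9 and Psmg4, and 0 by LEF1 alone (against 0.987%). All 7 were held by both factors in the full lists, so the equal lists show a difference in rank within a list and not the absence of LEF1 peaks. TCF1 replicate 3 enters this comparison whole, down to a −log10 q of 2.00, whereas the smallest value kept in the other 5 lists was 16.1 to 34.2.

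The peaks at gene ends lay mostly near the transcript starts. A listed start and strand was available in the RefSeq promoter table of build GRCm38.p6 for 43 of the 51 members. Of 174 end peaks at members with a listed strand, 172 were nearer the start than the far end, and the other 2 both belonged to Psme2. The summit of the strongest end peak, counted per member and library, lay within 250 bp of a listed start in 132 of 155 cases (85.2%) from 34 members, against 67.2% of 34034 such peaks over all genes. The median distance was -84 bp, upstream of the start, in the members and over all genes. At listed starts themselves LEF1 held 27 of 43 members (against 34.3% of 17491 genes) and TCF1 28 of 43 (against 33.9%). The 6 libraries placed their summits close together: over the 23 end regions found in all 6 libraries, the distance between the outermost summits was 7 to 234 bp, with a median of 74 bp. By fold enrichment the end peaks of members were of middling rank. Their median percentile within the list, where low is strong, was 40.8, 45.9, 42.4, 40.5, 39.4 and 56.3, and that of all genes with an end peak was 43.5, 39.6, 45.0, 43.5, 44.5 and 50.7.

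**Figure D3:**
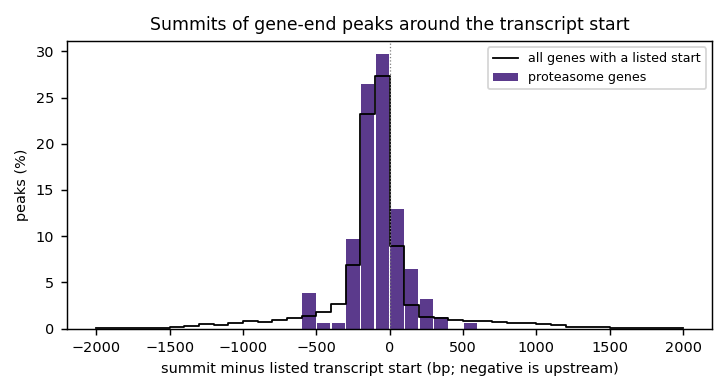
Distance in bp from the listed transcript start to the summit of the strongest gene-end peak, as percent of peaks per 100 bp bin, for proteasome genes (bars, 155 peaks) and all genes (line, 34034 peaks); 148 and 30287 of these lie in the plotted range. Both distributions peak in the 100 bp upstream of the start, with 29.7% and 27.4% of peaks.

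The wider window (gene body and 10 kb on each side) includes the gene ends, so peaks at the ends count here again. This window was held by LEF1 in 40 of 51 members (78.4%, against 52.7% of all genes) and by TCF1 also in 40 (78.4%, against 50%). Library by library, 39, 46, 37, 43, 40 and 30 members had an interval in this window, against 52%, 58.4%, 48.8%, 53.2%, 50.9% and 34.2% of all genes. The windows of 4 members, Psmb2, Psme4, Psmg3 and Psme2b, held no interval in any library (7.84%, against 40.6%). Proteasome genes were shorter than most, with a median length of 11.6 kb against 17.2 kb for all genes, so their wider windows were mostly shorter as well. The median number of intervals in the wider window, summed over the 6 libraries, was 7 for members and 4 for all genes, and at gene ends it was 5 and 0. The mean number per gene in the wider window was closer to the background. Per library it was 1.53, 1.94, 1.157, 1.55, 1.43 and 0.745 in members, against 1.35, 1.82, 1.161, 1.29, 1.16 and 0.585 in all genes. Merged over libraries, the members' windows held 98 distinct regions, of which 46 lay at a member's end and 23 of those 46 were found in all 6 libraries. Close neighbours limit the assignment of peaks to members: 19 of the 46 end regions were also within 1 kb of an end of another protein-coding gene. When intervals near another gene's end were left out, a choice made after seeing the data, LEF1 held an end of 20 members (39.2%, against 23.5% of all genes), TCF1 of 19 (37.3%, against 22.3%) and both of 17 (33.3%, against 20.7%).

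Promoter sequence could be read from RefSeq for the 43 members with a listed start, as the 250 bases before each of 47 listed starts. The sequences below, credited to RefSeq (GRCm38.p6) and written 5′ to 3′ on the strand of the gene, end at the base before the gene. They are shown for the 4 best-ranked subunits whose strongest summits all fell in this window in the 6 libraries, for the single member with a TCF/LEF motif match (Psmd10) and for the inducible beta subunit with a peak in every library (Psmb9), and were shortened where another transcript starts. Capitals mark matches to the TCF/LEF forms CTTTGAT and CTTTGTT and to the ETS form CCGGAA on either strand.
Psmd4, chr3:95042615-95042864, minus strand: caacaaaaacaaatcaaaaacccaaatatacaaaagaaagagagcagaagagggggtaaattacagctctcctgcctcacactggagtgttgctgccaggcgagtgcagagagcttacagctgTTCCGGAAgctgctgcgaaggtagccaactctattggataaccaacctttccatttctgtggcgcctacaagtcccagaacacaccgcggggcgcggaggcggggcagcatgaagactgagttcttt
Psma2, chr13:14613038-14613241, plus strand: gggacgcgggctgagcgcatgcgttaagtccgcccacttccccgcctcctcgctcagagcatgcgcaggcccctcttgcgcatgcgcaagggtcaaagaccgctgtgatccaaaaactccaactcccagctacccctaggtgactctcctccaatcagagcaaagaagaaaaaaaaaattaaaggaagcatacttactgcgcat
Psmb6, chr11:70525107-70525323, plus strand: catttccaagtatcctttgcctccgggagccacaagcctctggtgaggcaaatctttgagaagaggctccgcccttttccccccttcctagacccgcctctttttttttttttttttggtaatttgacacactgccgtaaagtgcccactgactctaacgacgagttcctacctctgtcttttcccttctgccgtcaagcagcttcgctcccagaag
Psmc6, chr14:45329574-45329822, plus strand: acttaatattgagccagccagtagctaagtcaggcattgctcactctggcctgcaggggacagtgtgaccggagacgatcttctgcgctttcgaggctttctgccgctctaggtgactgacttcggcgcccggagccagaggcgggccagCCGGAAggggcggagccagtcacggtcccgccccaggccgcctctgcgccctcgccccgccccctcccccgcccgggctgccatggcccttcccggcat
Psmd10, chrX:140956712-140956906, minus strand: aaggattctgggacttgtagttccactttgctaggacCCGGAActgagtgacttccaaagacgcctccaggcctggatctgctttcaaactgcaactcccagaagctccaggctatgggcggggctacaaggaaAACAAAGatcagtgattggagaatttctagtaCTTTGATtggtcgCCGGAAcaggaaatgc
Psmb9, chr17:34187331-34187555, minus strand: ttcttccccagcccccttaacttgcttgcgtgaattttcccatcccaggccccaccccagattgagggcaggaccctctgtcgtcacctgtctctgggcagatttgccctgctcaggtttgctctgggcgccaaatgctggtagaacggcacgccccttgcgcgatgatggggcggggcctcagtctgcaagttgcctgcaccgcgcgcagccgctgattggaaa
Of these 6 promoters only that of Psmd10 has TCF/LEF matches, and Psmd4, Psmc6 and Psmd10 have ETS matches. The Psmb9 sequence printed is 225 bases long. Summits at Psmb9 lay beyond it, at -266 and -280 bp in LEF1 replicates 2 and 3 and -258 and -313 bp in TCF1 replicates 2 and 3.

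In Psmd10, an assembly chaperone of the regulatory particle also known as gankyrin, the match to CTTTGAT spans bases -29 to -23 from the listed start and that to CTTTGTT, on the opposite strand, bases -61 to -55. The 6 summits at Psmd10 lay at -127, -122, -134, -127, -127 and -122, upstream of both matches and inside the printed window. Its ETS matches span -158 to -153 and -16 to -11. Over all members, 1 of 47 promoters (2.13%) held either TCF/LEF form, against 7.12% of 21262 promoters of all genes and 5.82% of the 7870 promoters of genes held at an end by either factor, a rule met by 33 members (64.7%) and 35.2% of all genes. The ETS form was found in 19 of 47 member promoters (40.4%, against 15% of all promoters and 24.3% of those of held genes). Over all genes the ETS share was thus higher in promoters of held genes than in all promoters. Members went the other way, as it was present in 9 of the 29 promoters of genes held by either factor and in 10 of the 18 others. Some of those others have peaks too, since held means an end interval in at least 2 of 3 libraries of a factor. In addition, held was scored at gene ends and motifs were scored before listed starts. Psmf1, Psma6 and Psmc2 have the ETS form and count as not held. Each has a region outside the end window, with median summits at 65, -143 and -117 bp from a listed start. The part of this mismatch in the members' counts was not tested.

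The other motifs searched on both strands were nearer the background. The antioxidant response form TGANNNNGC was found in 19 of 47 member promoters (40.4%, against 35.3%), and its long form TGACTCAGC in 0 (against 0.372%). NF-Y's CCAAT was present in 16 (34.0%, against 35.4%) and the SP form GGGCGG in 24 (51.1%, against 42.6%). GGGCGG was present in 20 of the 29 promoters of held members and in 4 of the other 18. Over all genes its share was likewise higher in promoters of held genes (58.2%) than in all promoters (42.6%). The nuclear respiratory factor form occurred in 1 (Psma2), the interferon response form in 3 (Psmb3, Psmd4 and Psmd9), the STAT form TTCNNNGAA in 2 (Psmb8 and Psmg1), and the heat shock form in 0, against 1.07%, 2.96%, 6.58% and 0.386% of all promoters. A TCF/LEF and an NF-Y match overlap in Psmd10. A match or its absence describes only these letters in this window. Base composition differed between members and other genes: the median number of CG pairs in the 250 bases was 14 in member promoters and 10 in all promoters. Over all genes it was 16 in promoters of held genes and 5 in the rest, but among members it was 14 in the held and 14.5 in the others. The part of base composition in the members' higher share of peaks was not tested.

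Among the alpha subunits, which form the outer rings of the core, LEF1 held an end of 5 of 8 genes and TCF1 of 6 of 8, and 5 had an interval in all 6 libraries. Psma5 had the strongest peaks of this class, with a fold enrichment of 45.4, 56.0, 39.5, 38.9, 29.6 and 14.1 in the region chr3:108256770-108257233. All 6 summits there lay 192 to 204 bp downstream of the listed start, inside the gene. Psma2 had 32.1, 44.6, 29.8, 24.9, 25.5 and 11.6 in chr13:14612815-14614037, which spans the divergent start of Mrpl32, a mitochondrial ribosomal protein gene. Psma3 had 33.4, 46.6, 28.6, 24.7, 23.2 and 10.6 in chr12:70967937-70970194. The summit of this Psma3 region lay at the outer edge of the gene model, at -4686 to -4676 bp from the start listed in the promoter table (negative is upstream), and a weaker region at that start was found in 4 libraries. In these 3 genes the highest fold enrichment was in LEF1 replicate 2 and the lowest in TCF1 replicate 3, the longest and the shortest list. Weaker peaks in all 6 libraries were found at Psma1 (4.36 to 11.7) and Psma4 (5.45 to 21.3). The Psma4 region was also within 1 kb of ends of Hykk and AY074887.

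Psma7 was the only member with an end interval in every TCF1 library and in no LEF1 library. Its fold enrichment was 7.12, 6.34 and 6.1 in TCF1 replicates 1, 2 and 3, at percentiles 75.3, 83.4 and 83.8 of those lists, so the peaks were weak. This pattern was found in 1 of 51 members and in 0.0457% of all genes (10 genes), and 0.0503% of all genes had more end intervals in each TCF1 library than in every LEF1 library. The counts of 0, 0 and 0 against 1, 1 and 1 intervals did not overlap, which is the smallest p the design allows (two-sided exact permutation p = 0.1, Benjamini-Hochberg adjusted p = 1 over all genes). The region chr2:180042429-180042759 also covers the start of Ss18l1, a subunit gene of a chromatin remodeller, which begins at base 180042483, so the peak cannot be assigned to Psma7 alone. With equal list sizes, Psma7 kept an end interval only in TCF1 replicate 3, whose list was not shortened. Psma7 was then held by neither factor. Psma6 and Psma8, the latter an alpha subunit of the testis, had no end interval. Psma6 held 3 regions inside the gene, 1 of them in all 6 libraries (fold enrichment 5.97 to 22.6, 5.50 kb from the nearer end) and 1, in 5 libraries, at -143 bp from another listed start of the gene. Psma8 held 2 internal regions, each in 5 libraries. Psma5 was also the only member whose wider window had more intervals in every LEF1 library than in every TCF1 library, 2, 2 and 2 against 1, 1 and 1 (exact permutation p = 0.1, adjusted p = 1; 3.62% of all genes). The extra region lay 2.58 kb beyond the far end and had a fold enrichment of 8.78, 13.4 and 8.92 in LEF1 replicates 1, 2 and 3.

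Among the 7 constitutive beta subunits, LEF1 held an end of 3 and TCF1 of 4, and the 3 catalytic genes among them differed. Psmb7, a catalytic subunit with trypsin-like activity, had a fold enrichment of 35.7, 49.8, 29.5, 33.2, 26.6 and 14.5 in chr2:38643697-38644432. Psmb6, the catalytic subunit with caspase-like activity, had 24.6, 36.1, 20.3, 21.2, 21.9 and 8.82, with summits at -95 to -38 bp from its listed start. Psmb5, which has chymotrypsin-like activity, had an end peak in LEF1 replicate 2 alone, with a fold enrichment of 5.63 at percentile 88.5. Psmb6 and Psmb7 were thus held by both factors and Psmb5 by neither, although a region 3.96 kb beyond the far end of Psmb5 was found in 5 libraries. The structural subunit Psmb3 had 12.4, 15.5, 9.31, 14.2, 15.2 and 6.92, in a region shared with Pcgf2. Psmb4 had a single peak, of 11.5 in LEF1 replicate 2, and Psmb2 had no interval in any library or window. Psmb1 was held by TCF1 and not LEF1, with 4.08 in LEF1 replicate 2 and 4.57 and 5.85 in TCF1 replicates 1 and 2. It also shows the edge of the window, since a stronger region (12.9 to 18.8, 5 libraries) lay 1.53 kb outside the gene, near Tbp.

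Among the inducible and thymic beta subunits, LEF1 and TCF1 each held an end of 2 of 4, Psmb8 and Psmb9. Psmb9, the inducible counterpart of Psmb6, had a fold enrichment of 7.41, 12, 9.45, 11.7, 10.9 and 5.6, at percentiles 73.0, 47.9, 56.0, 46.3, 50.3 and 89.5 of the lists. Its summits lay at -313 to -135 bp from the start, in chr17:34187075-34187771, a region shared with Tap1, the peptide transporter gene that is transcribed away from it. Psmb8, the counterpart of Psmb5, had weak peaks of 5.29, 7.86, 4.31, 5.53 and 5.22 and none in TCF1 replicate 3. They fell in 2 regions, 1 with a median summit at -525 bp from the start (3 LEF1 libraries and 1 TCF1 library) and 1 with its median summit 102 bp inside the gene (2 and 2 libraries), and both were within 1 kb of the far end of Tap1. Psmb10, the counterpart of Psmb7, had 1 peak, of 7.31 in LEF1 replicate 2, 188 bp downstream of its start and also near an end of Lcat. Psmb11, the subunit of thymic cortical epithelium, had no end peak. In each library where Psmb8, Psmb9 or Psmb10 had a peak, it ranked behind those of Psmb6 and Psmb7, which lay at percentiles 11.1 to 56.3 and 5.93 to 25.1.

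**Figure D4:**
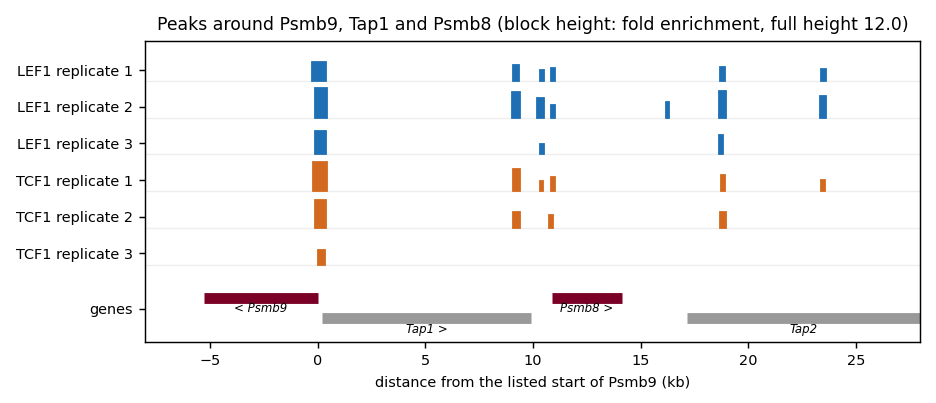
Peaks of the 6 libraries (blue LEF1, orange TCF1; block height is fold enrichment) around Psmb9, Tap1 and Psmb8, against distance in kb from the listed start of Psmb9; arrows give the strand where listed. The region between Psmb9 and Tap1 is marked in all 6 libraries, and the 2 weak regions at Psmb8 are marked in 4 libraries each.

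Among the 6 ATPases of the regulatory particle, LEF1 held an end of 4, TCF1 of 3 and both of 3. Psmc6 had a fold enrichment of 13.0, 24.9, 17, 22.0, 20.2 and 12.4, with summits at -189 to -56 bp from the start. Psmc4 had 16.3, 23.5, 14.8, 18.1, 17.1 and 10.1, with summits at -121 to -47 bp. These were the 2 ATPase genes with peaks in all 6 libraries. Psmc5 was held by LEF1 and not TCF1, with 6.5, 7.18 and 5.1 in the LEF1 libraries and 9.84 in TCF1 replicate 1. Its groups overlapped, and its region also lay at the start of Ftsj3. Psmc3 had peaks of 5.17 and 5.96 in LEF1 replicates 1 and 2 and of 5.35 and 5.85 in TCF1 replicates 1 and 2. Psmc1 had 1 weak peak per factor. Psmc2 had an end peak in TCF1 replicate 1 alone, of 3.79, in a region shared with Dnajc2. A further Psmc2 region, outside the end window but with its median summit at -117 bp from another listed start, had 4.84 and 4.46 in LEF1 replicates 1 and 2 and 5.37 in TCF1 replicate 1.

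Among the 11 non-ATPase subunits of the regulatory particle, LEF1 held 7, TCF1 8 and both 6. Psmd3, a lid subunit, had the best mean percentile of all members, with a fold enrichment of 47.3, 56.7, 40.2, 40.9, 32.0 and 19.9 in chr11:98682162-98682922, at percentiles 4.47 to 13.6. Psmd4, a ubiquitin receptor of the particle, had 32.9, 50.5, 29.3, 27.1, 31.4 and 14.6 in chr3:95042435-95043159. Its summits were at -30, -30, -21, -32, -26 and -25 from the listed start. Psmd14, the deubiquitinase that removes ubiquitin chains, had 20.6, 26, 16.8, 17.9, 15.7 and 6.87, with summits 65 to 72 bp inside the gene. In Psmd4 and Psmd14 the 6 libraries agreed on the summit to within 11 and 7 bp. Psmd1, a scaffold subunit, had 7.77 to 13.1 and Psmd8, a lid subunit, 8.93 to 14.6, each in 6 libraries. The Psmd8 region was also within 1 kb of an end of Catsperg1. Psmd11 had 7.48 to 10.7 in 5 libraries.

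The members of this class held by 1 factor all had weak peaks. Psmd7, the partner of Psmd14, was held by LEF1 alone, with 7.47 and 9.07 in replicates 1 and 2 and no TCF1 peak. Psmd6 was held by TCF1 alone, with 6.30 and 5.06 in replicates 1 and 2, beside 6.90 in LEF1 replicate 2. Psmd13 was held by TCF1 alone, with 4.02 and 4.26, beside 4.10 in LEF1 replicate 2, in a region shared with Sirt3. None of the 3 separated the 2 groups of libraries. Psmd2, a ubiquitin receptor scaffold, and Psmd12, a lid subunit, had no end interval. The window of Psmd12 held a region in all 6 libraries 6.08 kb outside the gene, with a fold enrichment of 19.4, 23.8, 17.5, 12.6, 11.4 and 5.64. That of Psmd2 held 1 region, in 5 libraries, 9.26 kb beyond the far end and next to Eif4g1. Over all classes, 2 members were held by LEF1 and not TCF1 (Psmc5 and Psmd7, 3.92%, against 3.11% of all genes) and 4 by TCF1 and not LEF1 (Psma7, Psmb1, Psmd6 and Psmd13, 7.84%, against 2.17%).

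Each of the 3 chaperones that assemble the regulatory particle was held by both factors. Psmd10 had a fold enrichment of 15.2, 21.4, 14.4, 14.2, 13.3 and 7.35. Psmd9 had 13.0, 16.4, 12, 13.2 and 12 and no peak in TCF1 replicate 3. Psmd5 had 12.3, 12.5, 7.95, 15.7, 15.4 and 5.08. Among the 4 chaperones that assemble the core, both factors held Psmg2 and Psmg4 and neither held Psmg1 and Psmg3. Psmg2 had 14.6, 19.3, 11.3, 17.2, 15.4 and 7.38, in a region shared with Cep76. Psmg4 had 6.09, 12.1, 5.71, 9.5, 7.33 and 3.5. Psmg3 had no interval in either window. Psmg1 had none at its ends, but the strongest region in the window of any member lay 8.51 kb upstream of it, in chr16:95999160-95999851, with a fold enrichment of 49.5, 67.5, 39.9, 40.4, 36.6 and 19.4.

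Of the activators and the inhibitor, 1 of 5 was held, and by both factors. Psme1 and Psme2 encode the interferon-inducible activator and lie close together on opposite strands, and only Psme2 was held. At the start of Psme2 the fold enrichment was 18.8, 24.0, 16.3, 19.6, 22.7 and 10.2 in chr14:55590730-55591800, with its median summit at -548 bp and close to the start of Rnf31, a ubiquitin ligase gene read in the other direction. A further region in all 6 libraries, chr14:55585145-55586533 with 22.0, 35.4, 10.7, 22.8, 21.6 and 11.4, lay at the start of Emc9 and within 1 kb of the far end of Psme2 in some libraries. Psme1 had 1 end peak, of 4.65 in TCF1 replicate 1. Psme3, the nuclear activator, had 1 of 4.51 in the same library, and Psme4, another nuclear activator, had no interval in either window. Psmf1, the proteasome inhibitor, had no peak within 1 kb of its annotated ends, but a region in 5 libraries with 15.6, 22.0, 9.45, 16.8 and 15.9 lay 65 bp inside its listed start, 2.95 kb from the gene end. The rule on gene ends thus missed a peak at the listed start of Psmf1.

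**Figure D5:**
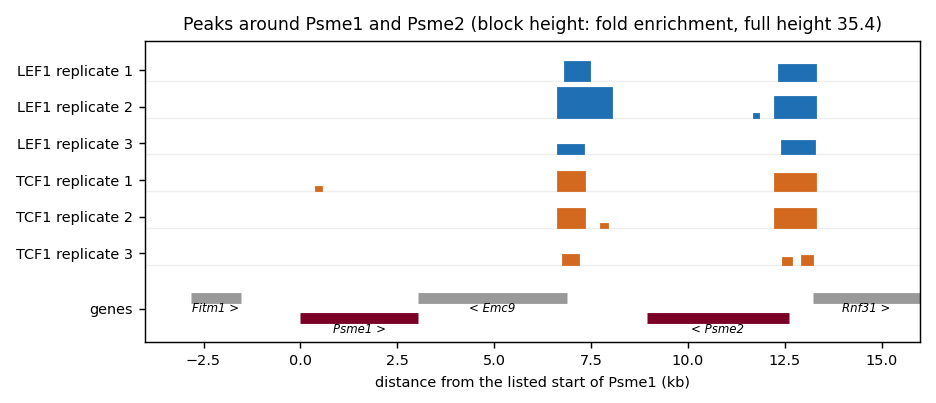
Peaks of the 6 libraries (blue LEF1, orange TCF1; block height is fold enrichment) around Psme1 and Psme2, against distance in kb from the listed start of Psme1; arrows give the strand where listed. The starts of Emc9 and Psme2 are marked in all 6 libraries, and Psme1 by 1 small block in TCF1 replicate 1.

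Among the other symbols, Psme3ip1, which encodes a nuclear binding partner of the Psme3 activator, had a fold enrichment of 33.0, 38.6, 26.5, 39.6, 39.8 and 21.7 with summits at -158 to -9 bp. Its region was also within 1 kb of ends of Rspry1 and LOC115486880. Psmc3ip, a meiotic recombination gene, had 6.35, 9.61, 6.19, 8.34 and 7.01 and none in TCF1 replicate 3, in a region shared with Retreg3. Psme2b, a copy of Psme2, had no interval in either window.

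Genes that work with the proteasome were described by a list of partners and regulators, of which 21 of 22 were found. LEF1 held an end of 14, TCF1 of 16 and both of 14, beside the backgrounds of 33%, 32% and 29.9%, and the median number of intervals in the wider window over the 6 libraries was 7, as in the members. Among the genes with the most intervals were Rad23b (21), which encodes a shuttle factor, Nfe2l2 (21), the oxidative stress regulator, and Ubqln1 and Vcp (13 each). Nfe2l1, the factor that drives proteasome genes when the proteasome is inhibited, had 1 end interval in each of the 6 libraries. Pomp, the maturation factor of the core, was held by TCF1 and not LEF1, with counts of 0, 1, 0, 1, 1 and 0. Of 14 class I antigen processing genes, LEF1 held an end of 11, TCF1 of 12 and both of 11. Both factors held the wider window of all 14, against 48.6% of all genes. Their median of 20 intervals over the 6 libraries was above the 7 of the proteasome genes. This list was led by Tapbpl (61), Nlrc5 (32), Tapbp (31) and Irf1 (25). Tap1 and Tap2 lie beside Psmb9 and Psmb8, so some intervals are counted both in this list and in the members. These lists were described by counts only.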

How the data were processed

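Peak lists of 3 LEF1 and 3 TCF1 CUT&RUN libraries were used, with groups and replicate numbers from the sample titles. The submitters' processing notes name build GRCm38.p6, MACS3 3.0.3, Bowtie2 2.4.4, Trim Galore 0.6.6, FastQC 0.12.1, deepTools 3.5.1 and Picard. What options and control the caller had is not given in the sources. The authors deposited, for each peak, a fold enrichment (a ratio), a p-value and a q-value as −log10 values, and a whole-number score made from the −log10 q. The smallest deposited −log10 q was 2.00 to 2.06. Longer lists hold more genes, so counts were repeated with equal list sizes. Peaks were called per library. Read depth is not given, so no interval for counting error can be stated.

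From these lists, distinct intervals overlapping (by at least 1 bp) 1 kb on either side of either gene end, or the gene body with 10 kb on each side, were counted for the 21883 protein-coding genes of RefSeq GRCm38.p6. Regions are intervals merged over libraries, and coordinates are 1-based. Group differences were tested with two-sided exact permutation tests over 20 assignments of libraries, and single genes with Benjamini-Hochberg adjustment over all genes. With the replicate number as a block, the signs of the differences between same-numbered libraries were flipped instead. The code was tested on simulated peak lists. Python 3.11.15, numpy 2.4.6, pandas 2.3.3 and scipy 1.17.1 were used.

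Members, gene lists and motifs were chosen with earlier results of these data known. Values per library are given for the inducible and standard catalytic subunits and Psmb11, the 3 best-ranked members of each class, and members held by 1 factor, and members without an end interval are named. Of each pathway list the 4 genes with the most intervals were to be named (some results are not reported here), and Nfe2l1 and Pomp were chosen after their values were seen. Alternatives were other windows, thresholds and list sizes and each replicate left out. Whether replicate numbers pair the libraries is not known (correlations of -0.0758, 0.0725 and 0.282 between same-numbered libraries, which cannot decide it).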

Additional observations from a re-analysis of the deposited data

How the results depend on the processing

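Of 146 values recomputed under an alternative, 133 stayed near the main value (counts within 1.5 times, the members' difference within the spread between replicates, the difference over all genes with the same sign). The 133 include values of 1 factor with a library of the other factor left out, which could not change. The difference in members was -2.83 to 3.67 with 1 library left out, and below 0 without LEF1 replicate 2 (-2) or TCF1 replicate 3 (-2.83). With equal list sizes, LEF1 held 14 member ends, both factors held 14 and LEF1 held 24 wider windows. The mean number of end intervals for LEF1 was then 15.3, and those of the wider windows were 27 (LEF1) and 33.3 (TCF1). The difference between factors became -6.33 members and, over all genes, -3.05 percentage points (exact permutation p = 0.1). With 50 kb on each side, the wider windows held means of 218 (LEF1) and 153 (TCF1) intervals. Leaving out intervals near another gene's end, chosen after seeing the data, left 19 members held by TCF1 and 17 by both. The difference over all genes was -0.778 to 7.66 percentage points with 1 library left out, and was reversed (-0.778) without TCF1 replicate 3. With 1 library left out, LEF1 held 27 to 29 member ends, TCF1 23 to 31 and both 22 to 27. The replicate number was also used as a block, although the labels do not say that it pairs the libraries. The differences were then 0.667 members and 4.34 points over all genes (exact sign-flip permutation test of the latter, p = 0.5). LEF1 replicates 1 and 2 correlated best with another number, and LEF1 replicate 3 with its own (0.282). The cause of these shifts was not tested. The unknown read depth limits every absence of a peak.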
